A study of Danio rerio with 12 samples.

Results

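Among genes that mark the endothelium 10 were followed, namely the receptor tyrosine kinase genes *kdrl*, *kdr*, *flt1*, *flt4*, *tie1* and *tek*, the junction genes *cdh5* and *esama*, the surface lectin gene *clec14a* and the secreted factor gene *egfl7*. They were taken by name, with earlier results of these data known. All 10 were found among the 21570 genes of the mutant table and the 21119 genes of the overexpression table. RNA came from cells sorted by a *myl7* reporter from zebrafish embryos at 20 hpf. The *myl7* promoter labels cardiomyocytes, so that every library was labelled as cardiomyocytes of the embryonic heart. The reporter was *Tg(myl7:EGFP)* in the mutant experiment. For the overexpression experiment the paper names *Tg(myl7:EGFP)* in one figure legend and *Tg(myl7:mCherry)* in another. The mutant experiment set 3 libraries of *hand2 FLD*-/- embryos, homozygous for a CRISPR deletion that spans the *hand2* coding sequence, against 3 libraries of *hand2 FLD*+/? siblings, which the labels give as WT or heterozygous. The overexpression experiment set 3 libraries of *hand2* OE embryos, which carry *Tg(myl7:hand2-p2a-EGFP)* and so express *hand2* from the same promoter in the myocardium, against 3 libraries of WT siblings. The number of embryos behind a library is not given in the sources used here, and the libraries of a group were described as biologically independent samples.

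Vascular endothelial growth factors signal to endothelial cells through the receptor tyrosine kinases Kdrl, Kdr, Flt1 and Flt4, and angiopoietins through Tek, with Tie1 as its partner receptor. VE-cadherin, encoded by *cdh5*, and the immunoglobulin-like adhesion protein encoded by *esama* hold endothelial cells together at their junctions. In zebrafish embryos endothelial and endocardial precursors arise in the lateral plate mesoderm close to the myocardial precursors, and the endocardium then lines the myocardium.

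The values are read counts normalized by the authors within each experiment, so levels were compared within an experiment and not between the experiments. They are not divided by transcript length, so levels were not compared between genes. Between 5003372 and 7658622 counted reads were estimated per library. The deleted gene itself had 149, 427 and 45 normalized counts in *hand2 FLD*-/- cells, against 2228, 2336 and 2380 in *hand2 FLD*+/? cells. In *hand2* OE cells *hand2* had 2159, 1939 and 2102 normalized counts, against 1671, 1667 and 1611 in WT cells. Genes whose mean reached 5 in a table were tested with limma, and those with a Benjamini-Hochberg adjusted p up to 0.05 and a change beyond 1.5-fold are called here. Log2 fold changes are differences of the mean log2(normalized count + 1), which understates the change of genes with few reads in every library and can exceed the ratio of the means where single libraries of a group are near 0. By these criteria *hand2* fell in *hand2 FLD*-/- cells, and in *hand2* OE cells its log2 fold change of 0.32 stayed short of the fold criterion (adjusted p = 0.00837 from limma).

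In *hand2 FLD*-/- cells 9 of the 10 genes rose and none fell, with *egfl7* short of the fold threshold. Among the 17877 genes tested, 9.09% were called up and 9.43% were called down. The median log2 fold change of the 10 genes was 2.13, beside a median of 0.00 over all genes tested. Every *hand2 FLD*-/- library was above every *hand2 FLD*+/? library for each of the 10 genes, as was so for 22.0% of all genes tested. Each of the 10 had an adjusted p under 0.05, a mark that 29.6% of all genes tested reached. In RNA pooled from many cells, more endothelial cells among those sorted and more RNA of these genes per cell cannot be told apart.

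**Figure D1:**
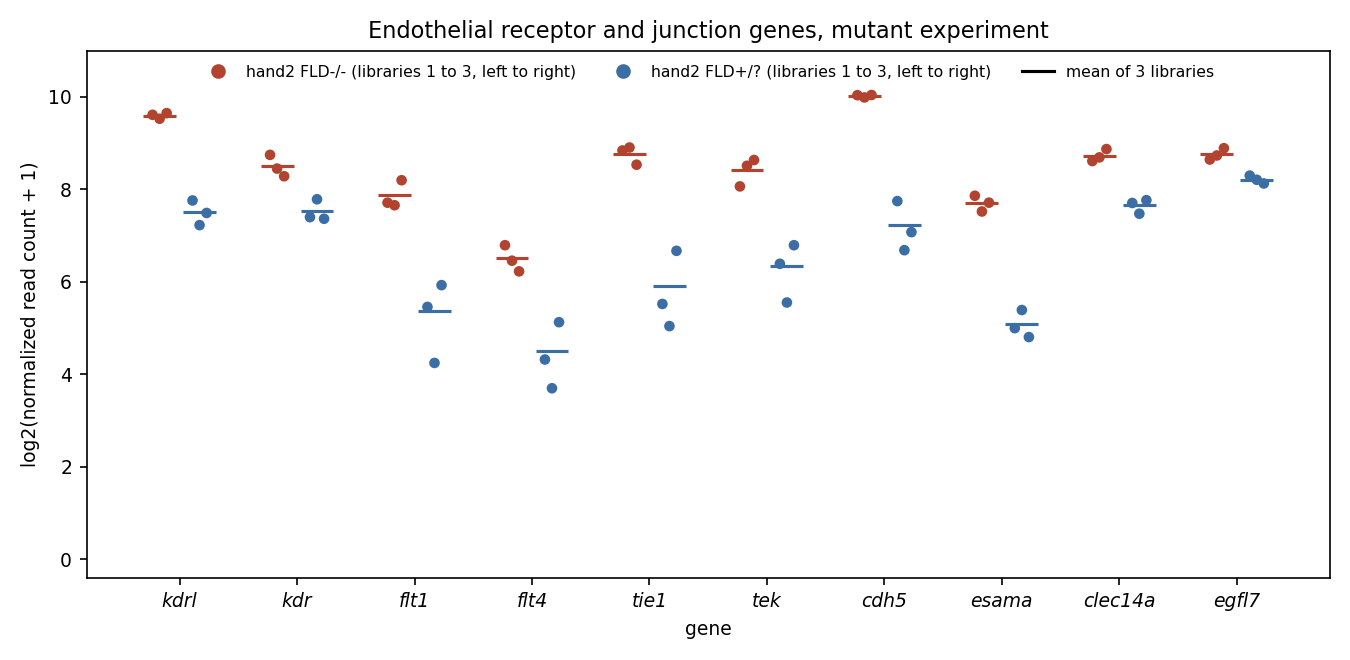
Log2(normalized read count + 1) of each gene (vertical axis) for the 10 genes (horizontal axis) in *hand2 FLD*-/- (red, left) and *hand2 FLD*+/? (blue, right) libraries, with points for the 3 libraries and a line at the log of their mean. The red points lie above the blue points for all 10 genes, with the narrowest gap at *egfl7*.

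The VEGF receptor genes rose together, by 1.97-fold to 5.81-fold. *kdrl* (ENSDARG00000105215), the receptor gene most widely used to mark zebrafish endothelium, lies on chromosome 14 of danRer11 from 32983769 to 33044955 on the minus strand. It had 783, 738 and 803 normalized counts in *hand2 FLD*-/- cells, against 216, 149 and 179 in *hand2 FLD*+/? cells. The mutant libraries were close to one another and lay far above the siblings. The means were 775 ± 33.3 and 181 ± 33.6 (SD, n = 3 each), a 4.27-fold higher value in the mutants. On the log2 scale the difference was 2.10, with a standard error of 0.14 and an adjusted p of 7.36e-06.

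*kdr* (ENSDARG00000017321), which encodes the second zebrafish VEGF receptor of this type, lies on chromosome 20 from 22220988 to 22277544 on the plus strand. It had 429, 349 and 311 normalized counts in *hand2 FLD*-/- cells, against 168, 220 and 164 in *hand2 FLD*+/? cells. Its groups did not overlap, but its rise was the smallest among the 4 VEGF receptor genes, 1.97-fold. In limma it stood 0.98 higher on the log2 scale (standard error 0.17), at an adjusted p of 0.00204, and this call alone among the 9 was lost with a 2-fold threshold.

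*flt1* (ENSDARG00000019371) encodes a VEGF receptor whose soluble form traps the ligand in zebrafish, and lies on chromosome 24 from 21750810 to 21808819 on the minus strand. It had 209, 201 and 293 normalized counts in *hand2 FLD*-/- cells, against 43, 18 and 60 in *hand2 FLD*+/? cells. The siblings spread over a range that stayed well under the lowest mutant. The fitted log2 difference was 2.64 with a standard error of 0.40, and limma's adjusted p was 0.00109.

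*flt4* (ENSDARG00000104453) encodes the receptor for Vegfc, which acts in venous and lymphatic growth, and lies on chromosome 14 from 15816509 to 15956921 on the minus strand. It had 110, 87 and 74 normalized counts in *hand2 FLD*-/- cells, against 19, 12 and 34 in *hand2 FLD*+/? cells. The lowest mutant library stood above the highest sibling library. On the log2 scale the difference was 2.11, with a standard error of 0.41 and an adjusted p of 0.00439, the largest adjusted p among the 10 genes.

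Both genes of the Tie family rose. *tie1* (ENSDARG00000004105) lies on chromosome 6 from 33979523 to 34008901 on the minus strand, and its end overlaps the thrombopoietin receptor gene *mpl*, on the same strand, by 1359 bp. The authors left out reads that overlapped several genes, and *mpl* had 4, 3 and 7 normalized counts in *hand2 FLD*-/- cells, against 0, 0 and 1 in *hand2 FLD*+/? cells. *tie1* had 458, 479 and 370 normalized counts in *hand2 FLD*-/- cells, against 45, 32 and 101 in *hand2 FLD*+/? cells. With all libraries its rise was the largest of the 10 genes, 7.34-fold between the means, although the sibling libraries differed several-fold from each other. On the log2 scale *cdh5* stood above it without *hand2 FLD*+/? replicate 1, at 3.14, and *esama* without *hand2 FLD*+/? replicate 2, at 2.80. In limma it stood 3.01 higher on the log2 scale (standard error 0.36), at an adjusted p of 0.000278, and lay between 2.66 and 3.48 with each library left out in turn.

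*tek* (ENSDARG00000028663), the gene of the angiopoietin receptor, lies on chromosome 5 from 480119 to 496781 on the plus strand. It had 267, 364 and 397 normalized counts in *hand2 FLD*-/- cells, against 83, 46 and 110 in *hand2 FLD*+/? cells. The groups were separate, with more spread relative to the mean in each than for *kdrl*. The fitted log2 difference was 2.16 with a standard error of 0.30, and limma's adjusted p was 0.000716.

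The junction genes rose as well. *cdh5* (ENSDARG00000075549) lies on chromosome 7 from 44445595 to 44471544 on the plus strand. It had 1051, 1016 and 1054 normalized counts in *hand2 FLD*-/- cells, against 214, 102 and 134 in *hand2 FLD*+/? cells. The mutant libraries were nearly equal, and the highest sibling library was far below them. The means were 1040 ± 21.1 and 150 ± 57.7 (SD, n = 3 each), 6.94-fold higher in the mutants, with a log2 fold change of 2.85 (standard error 0.22, adjusted p = 2.28e-05 from limma).

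*esama* (ENSDARG00000077039) lies on chromosome 10 from 31646020 to 31726486 on the plus strand. It had 232, 183 and 209 normalized counts in *hand2 FLD*-/- cells, against 31, 41 and 27 in *hand2 FLD*+/? cells. All sibling libraries were low and close together. On the log2 scale the difference was 2.63, with a standard error of 0.24 and an adjusted p of 5.81e-05.

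Beside *kdr*, the smallest differences were those of *clec14a* and *egfl7*. *clec14a* (ENSDARG00000103533), a C-type lectin gene of the endothelial surface, lies on chromosome 17 from 10242166 to 10243888 on the plus strand. It had 391, 413 and 468 normalized counts in *hand2 FLD*-/- cells, against 208, 177 and 217 in *hand2 FLD*+/? cells. The groups were separate and tight, with means that differed 2.11-fold and a log2 fold change of 1.08 (standard error 0.13, adjusted p = 0.00024 from limma).

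*egfl7* (ENSDARG00000100657), which encodes a factor that endothelial cells secrete into their matrix, lies on chromosome 21 from 7228467 to 7265219 on the minus strand. It had 400, 425 and 474 normalized counts in *hand2 FLD*-/- cells, against 314, 295 and 279 in *hand2 FLD*+/? cells. The groups did not overlap, and the difference of 1.46-fold lay just under the threshold. In limma it stood 0.55 higher on the log2 scale (standard error 0.10), at an adjusted p of 0.00403. It passed the fold threshold when the values were rescaled to equal library totals, at 0.59, and without *hand2 FLD*-/- replicate 1 or *hand2 FLD*+/? replicate 1, at 0.60 and 0.59.

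The sizes of these rises were also compared as ratios of one gene to another within a library, for 4 pairs chosen with the values known. The normalized count of *cdh5* was 2.63, 2.39 and 2.22 times that of *egfl7* in the *hand2 FLD*-/- libraries, against 0.682, 0.346 and 0.48 times in the *hand2 FLD*+/? libraries. The ratio of *cdh5* to *clec14a* was 2.69, 2.46 and 2.25 in *hand2 FLD*-/- cells, against 1.03, 0.576 and 0.618 in *hand2 FLD*+/? cells. The ratio of *kdrl* to *kdr* was 1.83, 2.11 and 2.58 in *hand2 FLD*-/- cells, against 1.29, 0.677 and 1.09 in *hand2 FLD*+/? cells. These ratios are taken within a library, so that library scaling does not enter them, and only their change between groups is read. The ratio of *tie1* to *tek* came close to touching, at 0.932 in the lowest *hand2 FLD*-/- library and 0.918 in the highest *hand2 FLD*+/? library. For each of the 4 ratios the exact two-sided permutation test gave p = 0.1, before or after adjustment over the 4, and no smaller p can be had with 3 libraries a group, so the ratios are given as a description.

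**Figure D2:**
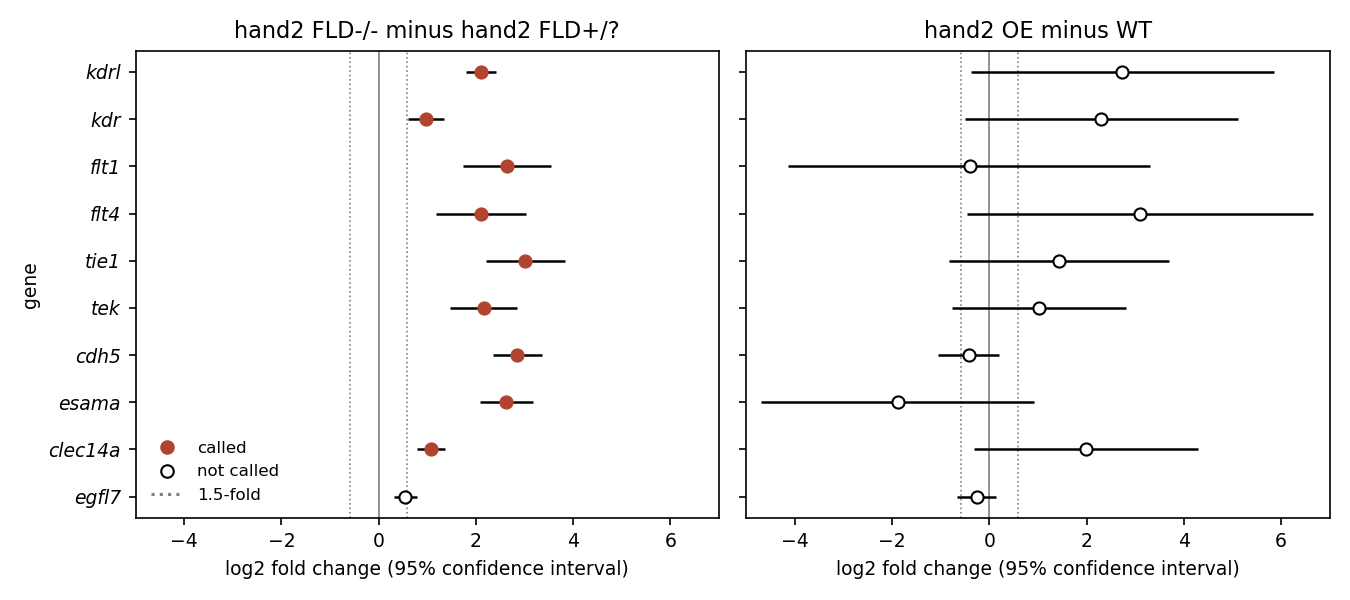
Log2 fold change (horizontal axis, with 95% confidence intervals from limma) of the 10 genes (vertical axis) in *hand2 FLD*-/- against *hand2 FLD*+/? cells (left panel) and in *hand2* OE against WT cells (right panel). Filled points are called genes and dotted lines mark 1.5-fold. On the left 9 points are filled, and on the right none is, with intervals that all reach across 0.

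Summed over the 10 genes, the normalized counts came to 4330, 4255 and 4453 in *hand2 FLD*-/- cells, against 1341, 1092 and 1305 in *hand2 FLD*+/? cells, a 3.49-fold difference of the means, and the groups were far apart. Of 10 cardiomyocyte markers 2 fell and none rose, which is 20.0% beside the 18.5% called among all genes tested. Short of the fold threshold the list leaned down, with all 10 log2 fold changes negative and a median of -0.29. An adjusted p of 0.05 or less from limma was reached by 8 of the 10, beside 29.6% of all genes tested. For 9 markers every *hand2 FLD*-/- library was below every *hand2 FLD*+/? library, as for 3988 of the 17877 genes tested. *myh6*, the atrial myosin heavy chain gene, was 5.17-fold lower. The summed cardiomyocyte markers stood between 31411 and 32560 in *hand2 FLD*-/- cells and between 45878 and 48727 in *hand2 FLD*+/? cells. The marker with most reads in these sums was *ttn.2*, with means of 11207 and 18152. *nkx2.5* hardly differed, with means of 1710 and 1733. *myl7*, the gene whose promoter drove the sorted label, had 1627, 1681 and 1801 normalized counts in *hand2 FLD*-/- cells, against 1984, 2024 and 2025 in *hand2 FLD*+/? cells. Sorting gates and the number of endothelial cells among those sorted are not in the tables, and their part in the result was not tested.

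Other endothelial genes were read from lists written by name. These lists were chosen with earlier results of these data known, so their counts are no independent support. Of 16 further endothelial surface and junction genes tested, 12 rose and 2 fell in *hand2 FLD*-/- cells, with a median log2 fold change of 2.38. The share called was 87.5%, beside 18.5% of all genes tested. *esamb*, the paralog of *esama*, had 73, 53 and 38 normalized counts in *hand2 FLD*-/- cells, against 9, 2 and 0 in *hand2 FLD*+/? cells, so that both paralogs rose. *calcrla*, a receptor gene of the adrenomedullin pathway, had 253, 336 and 343 in *hand2 FLD*-/- cells, against 45, 15 and 4 in *hand2 FLD*+/? cells. *rasip1*, a Ras-interacting junction regulator gene, was 6.58-fold higher, and *aplnrb*, an apelin receptor gene, was 4.99-fold higher. *dll4*, the arterial Notch ligand gene, was 1.76-fold higher.

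The list did not move as a whole. *stab1*, a scavenger receptor gene of endothelium, had 95, 77 and 95 normalized counts in *hand2 FLD*-/- cells, against 568, 737 and 632 in *hand2 FLD*+/? cells, a 7.25-fold fall (log2 fold change -2.84, adjusted p = 2.16e-06 from limma). Its paralog *stab2* went the other way, 4.48-fold higher, with 184, 181 and 114 in *hand2 FLD*-/- cells against 32, 39 and 36 in *hand2 FLD*+/? cells. *s1pr1*, a sphingosine-1-phosphate receptor gene, fell, with 105, 130 and 164 normalized counts in *hand2 FLD*-/- cells against 291, 249 and 209 in *hand2 FLD*+/? cells. The calls for *ecscr* and *robo4*, at log2 fold changes of 3.79 and 1.36, were lost when single mutant libraries were left out, while the fold changes lay between 2.09 and 4.66 for *ecscr* and between 0.98 and 1.59 for *robo4* as each of the 6 libraries was left out. Leaving out *hand2 FLD*-/- replicate 1, 2 or 3 in turn ended the call for *ecscr*, with adjusted p up to 0.108 from limma. Leaving out *hand2 FLD*-/- replicate 2 or 3 ended that for *robo4*, with adjusted p up to 0.07 from limma. The call for *mrc1a*, at a log2 fold change of 2.82, was lost in limma without the variance trend.

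Endothelial transcription factor genes rose in 10 of 13 cases, with none falling and a median log2 fold change of 1.17. The share called was 76.9%, beside 18.5% of all genes tested. *etv2*, an ETS factor gene at the top of the endothelial programme, had 516, 573 and 549 normalized counts in *hand2 FLD*-/- cells, against 149, 218 and 170 in *hand2 FLD*+/? cells. *fli1a* had 856, 945 and 910 in *hand2 FLD*-/- cells, against 276, 174 and 282 in *hand2 FLD*+/? cells. *sox7* rose 5.84-fold and *erg* 6.39-fold, and *gata2a*, a GATA factor gene of blood and endothelial progenitors, rose 7.56-fold. *npas4l*, the gene at the *cloche* locus, rose 2.23-fold and *tal1*, shared with blood, rose 1.88-fold. *lmo2*, *sox18* and *nfatc1* were not called, with log2 fold changes of 0.54, 0.48 and -0.80. *nfatc1*, which marks endocardium, had 147, 83 and 120 normalized counts in *hand2 FLD*-/- cells, against 282, 177 and 157 in *hand2 FLD*+/? cells (adjusted p = 0.0557 from limma). It was called down in 4 of the 16 alternatives, at adjusted p between 0.0267 and 0.0476 from limma, namely with the replicate block, with a mean of at least 20, and without *hand2 FLD*-/- replicate 1 or *hand2 FLD*+/? replicate 3.

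Ligands and coreceptors did not follow the receptors in one direction. Of 7 ligand genes tested, 2 rose and 3 fell, which is 71.4% called beside 18.5% of all genes tested. *vegfab* had 615, 568 and 569 normalized counts in *hand2 FLD*-/- cells, against 204, 195 and 198 in *hand2 FLD*+/? cells, and *angpt2b*, an angiopoietin gene, rose 4.16-fold. *vegfc*, the ligand gene for Flt4, fell 4.12-fold, with 6, 27 and 35 normalized counts in *hand2 FLD*-/- cells against 94, 98 and 88 in *hand2 FLD*+/? cells. Its call was lost in limma without the variance trend. *pgfb*, a placental growth factor gene whose product is a ligand of Flt1 in mammals, had 0, 4 and 0 in *hand2 FLD*-/- cells, against 56, 83 and 49 in *hand2 FLD*+/? cells. *vegfaa* was 1.51-fold lower, with log2 fold changes between -0.76 and -0.43 as each library was left out, a call lost in 7 of the 16 alternatives, with adjusted p up to 0.117 from limma without *hand2 FLD*-/- replicate 2 or 3 or *hand2 FLD*+/? replicate 1 or 2.

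Of 8 coreceptor and modulator genes tested, 2 rose and 2 fell in *hand2 FLD*-/- cells. *ccbe1*, which is required for Vegfc processing, had 5, 12 and 0 normalized counts in *hand2 FLD*-/- cells, against 333, 312 and 345 in *hand2 FLD*+/? cells. *svep1*, an extracellular matrix gene of zebrafish lymphatic growth, had 0, 3 and 0 in *hand2 FLD*-/- cells, against 804, 948 and 637 in *hand2 FLD*+/? cells. The semaphorin receptor gene *plxnd1* rose 3.17-fold, and the neuropilin gene *nrp2b* 1.74-fold. Over these 4 lists together 26 of 44 genes tested rose and 7 fell, which is 75.0% called beside 18.5% of all genes tested.

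**Figure D3:**
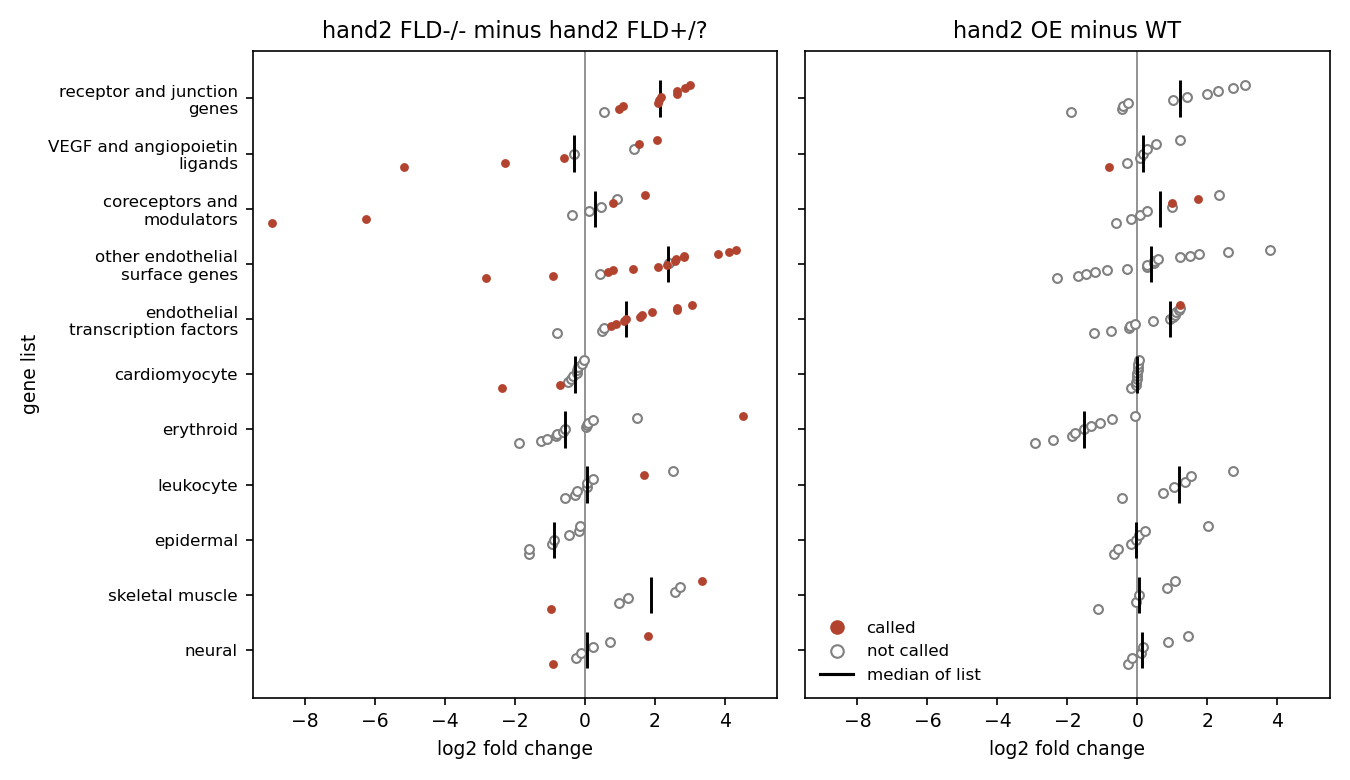
Log2 fold changes (horizontal axis) of the genes of each list (vertical axis) in *hand2 FLD*-/- against *hand2 FLD*+/? cells (left panel) and in *hand2* OE against WT cells (right panel). Points are genes, filled where called, and vertical strokes are list medians. In the left panel the medians of the receptor and junction genes and of the other endothelial surface genes stand at 2.13 and 2.38. That of the skeletal muscle markers stands at 1.90, and the ligand and coreceptor lists spread to both sides.

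Markers of other cells were read beside this rise. The share called was 7.69% of erythroid, 12.5% of leukocyte and 0.00% of epidermal markers. It was 33.3% each for skeletal muscle and neural markers, beside 18.5% of all genes tested. Of 13 erythroid markers 1 rose in *hand2 FLD*-/- cells, *epb41b*, 22.9-fold, and the summed list ranged from 676 to 793 in *hand2 FLD*-/- cells and from 336 to 852 in *hand2 FLD*+/? cells. Of 8 leukocyte markers 1 rose, *lyz*, a call lost whichever of the 6 libraries was left out (log2 fold change 1.47 to 1.84, adjusted p up to 0.124 from limma), and the sums ranged from 3652 to 4147 in *hand2 FLD*-/- cells and from 3880 to 4366 in *hand2 FLD*+/? cells. None of 7 epidermal markers was called. Their sum ranged from 916 to 968 in *hand2 FLD*-/- cells, and stood at 3042 in *hand2 FLD*+/? replicate 2 with 726 and 834 in the other siblings. Without that library the 9 calls among the receptor and junction genes held. Of 6 skeletal muscle markers 1 rose, *myod1*, a call lost in 7 of the 16 alternatives (log2 fold change 2.39 to 4.74 with single libraries left out), and 1 fell, *ckma*, and of 6 neural markers 1 rose, *sox2*, and 1 fell, *elavl3*. The median log2 fold change of the skeletal muscle list was 1.90, with 5 of the 6 positive, beside 2.13 for the 10 genes. *ckma* had most reads in the skeletal muscle sums, with means of 606 and 1175 in *hand2 FLD*-/- and *hand2 FLD*+/? cells. It was the only gene of that list with a negative log2 fold change, -0.96. Its fall therefore offsets the other 5 genes in the sums, which do not show how those 5 moved. The medians were -0.58 for erythroid, 0.06 for leukocyte, -0.89 for epidermal and 0.06 for neural markers. The skeletal muscle sums ranged from 1505 to 1605 in *hand2 FLD*-/- cells and from 1328 to 2099 in *hand2 FLD*+/? cells, and the neural sums from 1434 to 1664 in *hand2 FLD*-/- cells and from 1197 to 1867 in *hand2 FLD*+/? cells.

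Genes that share ontology terms with the 10 genes, as the authors listed them, moved in both directions. Only 5 of the 10 carry any term there, and 4 of these, *tie1*, *kdr*, *tek* and *kdrl*, are annotated to angiogenesis. Of 105 other genes tested under that term 13 rose and 15 fell in *hand2 FLD*-/- cells, with a median log2 fold change of -0.05. Of 23 other genes annotated as receptor tyrosine kinases 4 rose and 8 fell. Among all genes tested there, 9.09% were called up and 9.43% down. In *hand2* OE cells 10 of 102 such angiogenesis genes rose and 2 fell. Of 22 receptor tyrosine kinase genes 3 rose and 1 fell there, beside 4.10% of all genes called in either direction.

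Genes near the 10 genes were read for changes shared along the chromosome. Within 250000 bp, 99 neighbouring genes were tested in the mutant experiment, of which 8 rose and 9 fell. That is 17.2%, beside 18.5% of all genes tested that were called in either direction. *kdr* lies 157636 bp from *pdgfra* on chromosome 20, and these neighbours changed in opposite directions, with *pdgfra* 2.85-fold lower in *hand2 FLD*-/- cells (log2 fold change -1.51, adjusted p = 2.59e-07 from limma).

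In *hand2* OE cells none of the 10 genes was called, and none had an unadjusted p from limma under 0.05. Of the 16510 genes tested there 4.10% were called in either direction, and 20.9% had an unadjusted p under 0.05. For no gene of the 10 were the groups separate, against 26.1% of all genes tested. Apart from *cdh5* and *egfl7*, the intervals spanned several log2 units, so that these libraries could not show a change of several-fold in these genes.

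**Figure D4:**
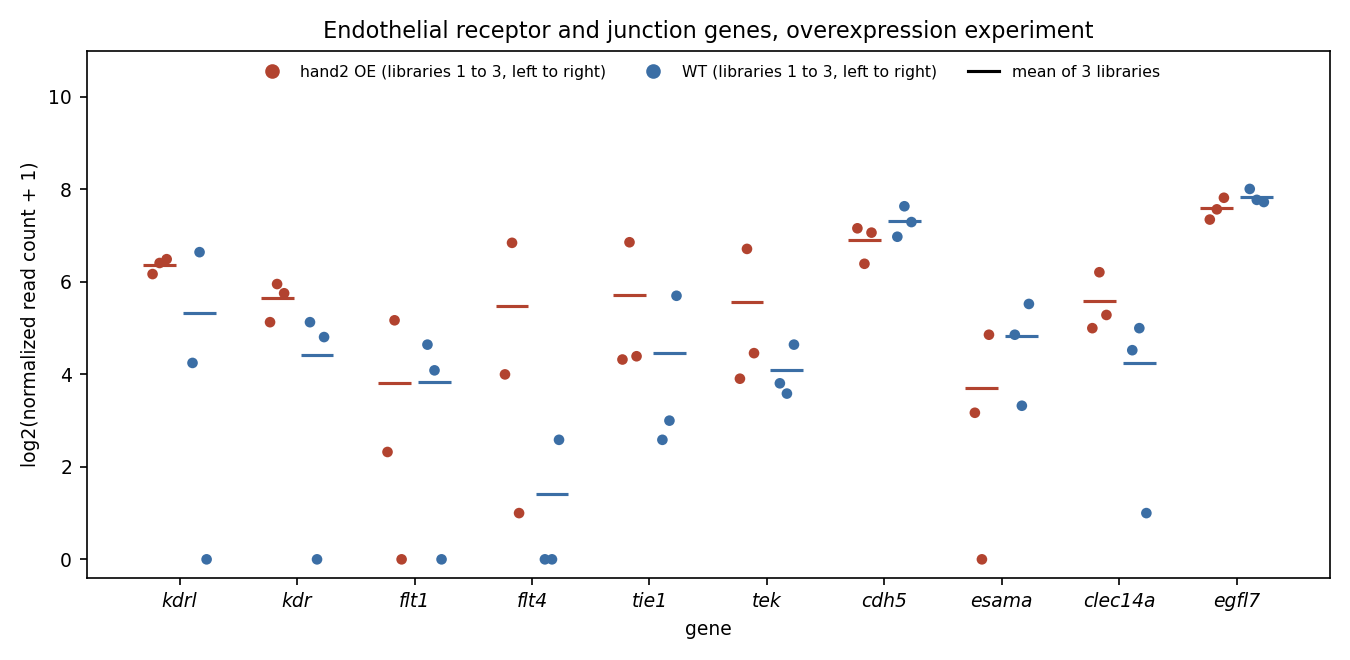
Log2(normalized read count + 1) of each gene (vertical axis) for the 10 genes (horizontal axis) in *hand2* OE (red, left) and WT (blue, right) libraries, with points for the 3 libraries and a line at the log of their mean. The groups overlap for all 10 genes, and the libraries of a group spread widely except for *cdh5* and *egfl7*.

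The genes with most reads gave the narrowest intervals. *cdh5* had 142, 83 and 133 normalized counts in *hand2* OE cells, against 125, 198 and 156 in WT cells. The groups overlapped, and the log2 fold change was -0.43 (95% confidence interval -1.06 to 0.19, adjusted p = 0.43 from limma). *egfl7* had 162, 189 and 225 normalized counts in *hand2* OE cells, against 257, 218 and 211 in WT cells. Its log2 fold change was -0.26 (95% confidence interval -0.66 to 0.14, adjusted p = 0.461 from limma).

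The VEGF receptor genes had few reads in these libraries. *kdrl* had 71, 84 and 89 normalized counts in *hand2* OE cells, against 18, 99 and 0 in WT cells. The OE libraries were close together and lay inside the range of the WT libraries, and the log2 fold change was 2.73 (95% confidence interval -0.39 to 5.85), while the means differed 2.09-fold. *kdr* had 34, 61 and 53 in *hand2* OE cells, against 34, 0 and 27 in WT cells, with a log2 fold change of 2.30 (95% confidence interval -0.50 to 5.11). *flt1* had 4, 35 and 0 in *hand2* OE cells, against 24, 16 and 0 in WT cells, and its direction changed with single libraries left out. *flt4* had 15, 114 and 1 in *hand2* OE cells, against 0, 0 and 5 in WT cells. Its log2 fold change of 3.09 (95% confidence interval -0.47 to 6.65) depended on the number added before the log, from 1.95 to 3.64 over the processing alternatives.

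The Tie genes were high in a single library. *tie1* had 19, 115 and 20 normalized counts in *hand2* OE cells, against 5, 7 and 51 in WT cells, with a log2 fold change of 1.43 (95% confidence interval -0.84 to 3.70). *tek* had 14, 104 and 21 in *hand2* OE cells, against 13, 11 and 24 in WT cells, with a log2 fold change of 1.01 (95% confidence interval -0.78 to 2.81). In both genes *hand2* OE replicate 2 stood apart, as it did for *flt4*.

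*esama* had 8, 0 and 28 normalized counts in *hand2* OE cells, against 28, 9 and 45 in WT cells, with a log2 fold change of -1.89 (95% confidence interval -4.71 to 0.92). *clec14a* had 31, 73 and 38 in *hand2* OE cells, against 22, 31 and 1 in WT cells, with a log2 fold change of 1.99 (95% confidence interval -0.31 to 4.29). Neither gene was called, and *esama* was at 0 in the very library in which *tie1* and *tek* were highest.

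*hand2* OE replicate 2 also stood apart in markers of other cell types, although none of 9 erythroid, 6 leukocyte, 7 epidermal, 5 skeletal muscle and 6 neural markers was called in *hand2* OE cells. The leukocyte markers summed to 724, 1277 and 561 in *hand2* OE cells, against 850, 170 and 363 in WT cells. Its summed epidermal markers were 3529, against 333 and 1367 in the other *hand2* OE libraries and 481 to 2011 in WT libraries. The leukocyte gene *lcp1* had 545 normalized counts there, against 228 and 181 in the other *hand2* OE libraries and 279, 19 and 13 in WT libraries. The endothelial factor gene *fli1a* had 215 there, against 52 and 26 in the other *hand2* OE libraries and 58, 16 and 25 in WT libraries. *cdh5* went the other way, lower there, at 83, than in any other library of the experiment. The 10 genes summed to 858 in that library, against 500 and 608 in the others and 526, 589 and 520 in WT cells. Without it the median log2 fold change of the 9 genes still tested was 0.17, beside 1.22 for all 10 genes with every library, and without WT replicate 2 it was 0.72. Erythroid markers stood apart in another library, with a sum of 848 in WT replicate 2 against 55 and 90 in the other WT libraries. Their part in the values of the 10 genes was not tested.

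The spread among libraries was larger for the 10 genes than is usual at their level in the overexpression experiment. Of the 10 genes, 8 had a mean between 10 and 100 normalized counts in *hand2* OE cells, and their median coefficient of variation was 108%, beside 43.2% for the 5720 genes of that range. In WT cells 7 genes fell in that range, at a median of 88.3% beside 39.3%. In the mutant experiment, 8 genes had a mean between 100 and 1000 in *hand2 FLD*-/- cells, where their median coefficient of variation was 12.5% beside 8.51% for all genes. In *hand2 FLD*+/? cells 5 genes had a mean between 10 and 100, with a median of 51.9% beside 32.6%.

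Over the 4 wider lists 3 of 44 genes tested rose and 1 fell in *hand2* OE cells, which is 9.09% beside the 4.10% called among all genes tested. Of 16 further endothelial surface genes none was called, although 4 had an unadjusted p under 0.05 from limma. In 3 of the 16 alternatives 1 of them was called up, a different gene each time, *dll4* with the replicate block, *stab1* with a mean of at least 20 and *gpr182* without WT replicate 3. *klf2a*, a flow-responsive transcription factor gene, was the one of 13 transcription factors that rose, with 202, 154 and 225 normalized counts in *hand2* OE cells against 99, 72 and 76 in WT cells. Its log2 fold change was 1.22 with all libraries and lay between 1.1 and 1.38 with single libraries left out. The call was lost in 5 of the 16 alternatives, with adjusted p up to 0.0793 from limma without *hand2* OE replicate 1 or 3 or WT replicate 2 or 3. In *hand2 FLD*-/- cells *klf2a* was 2.19-fold above the siblings. *nrp2a*, a neuropilin gene, rose, with 387, 319 and 529 normalized counts in *hand2* OE cells against 154, 88 and 129 in WT cells. Its call was lost in limma without the variance trend. *svep1* was 2-fold higher, with 275, 233 and 360 in *hand2* OE cells against 127, 190 and 117 in WT cells, with log2 fold changes between 0.84 and 1.22 as each library was left out in turn. Its call was lost in 7 of the 16 alternatives, with adjusted p up to 0.133 from limma without any single library other than WT replicate 2. *vegfab* was 1.71-fold lower, with 249, 154 and 258 in *hand2* OE cells against 390, 363 and 379 in WT cells, a call lost in 9 of the 16 alternatives, with log2 fold changes between -0.94 and -0.57 and adjusted p up to 0.131 from limma as each of the 6 libraries was left out. None of the 10 cardiomyocyte markers was called, and their sums ranged from 52108 to 58381 in *hand2* OE cells and from 54946 to 60088 in WT cells.

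The genes whose pattern over the 12 libraries lay nearest to that of the 10 genes were sought among the 10736 genes whose mean reached 50 in each table. Likeness was the root mean square difference on the log2 scale from the median centred profile of the 10 genes. *orc1*, a subunit gene of the origin recognition complex, was nearest at 0.40, followed by *ptprn2* at 0.45, *tk1* at 0.47, *kcnk5a* at 0.47 and *nufip1* at 0.48. The 10 genes themselves lay between 0.41 (*tek*) and 1.71 (*esama*) from their own profile. They were held only to a mean of 5 in each table, so their distances cannot be set beside those of the candidates. Endothelial genes with few reads were not candidates, such as *etv2* with means of 43 and 28.3 in *hand2* OE and WT cells. Others were candidates and were not among the 5 nearest, such as *sox7* with means of 120 and 63.3 in those cells. In that profile *hand2* OE replicate 2 was at 1.60 and no other library of its experiment was above 0.15. *orc1* lies 28606 bp from *tie1* on chromosome 6 and was 3.21-fold higher in *hand2 FLD*-/- cells, with 570, 657 and 770 normalized counts against 243, 173 and 206 in *hand2 FLD*+/? cells. In *hand2* OE cells it had 142, 267 and 125, against 68, 71 and 94 in WT cells. Those groups were separate, unlike the groups of any of the 10 genes there. It was not called there (log2 fold change 1.12, adjusted p = 0.0763 from limma).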

How the data were processed

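Total RNA of the sorted *myl7* reporter cells was made into SMART-Seq HT libraries and read as single ends. Per the submitters' processing notes and the paper's methods, the authors used Trimmomatic 0.39, STAR 2.7.10a, featureCounts 2.0.2 and DESeq2 1.30.1 with danRer11 and an Ensembl annotation. Reads overlapping several genes or aligning to several places were excluded, and the use of strand is not given in the sources used here. The deposited values are scores: read counts that the authors normalized within each experiment, 1 factor for each library, and rounded to whole numbers. No value column was without a sample. Positions, symbols, identifiers and ontology terms are those of the tables.

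Because raw counts are not what the tables hold, the model planned for counts was not used. Depth was estimated from whole numbers that the scaling left missing or doubled, with a largest error of 0.0387 on 24 simulated libraries. Reads carry no molecular identifiers. Values were fitted in R 4.3.3 with limma 3.58.1 (lmFit, eBayes with a trend) on log2(value + 1), separately for each experiment, for genes whose mean reached 5, and the steps were tested on simulated data. Groups came from the sample labels, with 3 libraries each. The p values weigh each group difference against the variance between libraries, which limma moderates with that of other genes.

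Named are the 10 genes, list genes called in either comparison (up to the 30 largest changes in each), *hand2* and the 5 genes nearest in pattern. Within this rule *she* and *hhex* were not named above. They were called up in *hand2 FLD*-/- cells, at log2 fold changes of 2.61 and 1.58. *gpr182* was named above only for the overexpression experiment, and it was called up in *hand2 FLD*-/- cells, at 2.58. Outside this rule *dll4*, *s1pr1*, *tal1*, *nrp2b*, *vegfaa*, *ckma*, *elavl3*, *lmo2*, *sox18*, *nfatc1*, *myl7*, *ttn.2*, *nkx2.5*, *mpl*, *pdgfra* and *lcp1* were named after their values were seen. The members and lists were chosen with earlier results of these data known, and so are no independent support. Alternatives were pseudocounts of 0.5 and 5, a minimum mean of 20 or none, rescaling to equal totals or by median ratios, limma without the trend, no fold threshold or a 2-fold threshold, the replicate number as a block, and each library left out. Planned comparisons of protein and promoter sequences and tests on whole reads were not run.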

Additional observations from a re-analysis of the deposited data

How the results depend on the processing

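In *hand2 FLD*-/- cells 8 to 10 of the 10 genes were called up under the 16 alternatives, 9 to 10 with single libraries left out, and none was called down. In *hand2* OE cells none was called under any of the 16 alternatives run. *flt1* in *hand2* OE cells reversed its direction with single libraries left out, from -1.87 to 0.84 on the log2 scale, against -0.41 with all libraries. Counts over all genes moved more. In *hand2 FLD*-/- cells 1625 rose and 1685 fell, 2650 and 2642 without a fold threshold, and 915 and 1190 at 2-fold. In *hand2* OE cells 418 rose and 259 fell, 569 and 525 without a fold threshold, 268 and 119 at 2-fold, and 133 and 70 in limma without the trend. With single libraries left out of the *hand2* OE experiment, 187 to 323 genes rose and 124 to 256 fell.

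Same-numbered libraries did not deviate together, with correlations of 0.029, 0.061 and 0.017 in the mutant experiment and -0.058, -0.1 and -0.033 in the overexpression experiment. With the replicate number as a block, 9 of the 10 genes were called up in *hand2 FLD*-/- cells and 0 in *hand2* OE cells, and over all genes of the *hand2* OE experiment 286 rose and 180 fell. In the *hand2* OE experiment 8 of the 10 genes, all but *cdh5* and *egfl7*, had intervals several log2 units wide.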
